A study of Mus musculus with 15 samples.

Results

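Expression of 10 genes of pigmented cells was followed array by array in purified mouse retinal endothelial cells: Tyr, Tyrp1, Dct, Pmel, Mlana, Mitf, Rpe65, Lrat, Best1 and Ttr. They were chosen by name, as genes of melanocytes and of the retinal pigment epithelium (RPE), and every probe set that carries 1 of these symbols was used. All 10 genes were on the array, with 19 of its 45101 probe sets, among 18194 genes with a symbol of their own. The cells came from adult mice of mixed C57Bl6/129 background and were captured with anti-PECAM beads. There were 3 arrays from Fz4-/- mice, which lack the receptor Frizzled4, 3 from Lrp5-/- mice, which lack its coreceptor, 3 from Norrin KO mice, which lack the secreted ligand, and 6 from wild-type mice. Each array held the RNA of 1 pool of 5 to 10 mice, all labelled mixed gender. The labels name no limit of the mutations to endothelium, and p-values measure the spread between pools, not between mice.

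Pigment in the eye is made by neural-crest melanocytes of the choroid and iris and by the pigment epithelia. In both, tyrosinase (Tyr) starts melanin synthesis, the related enzymes Tyrp1 and Dct shape eumelanin, Pmel builds the fibrils on which melanin is laid down, Mlana is a melanosome protein, and the transcription factor Mitf drives this programme. Rpe65, Lrat and Best1 are used by the RPE for retinoid recycling and chloride transport, and Ttr carries thyroid hormone and retinol-binding protein. The endothelium of the retina makes no melanin, so the melanin genes bear on which other cells came along with the beads. In such bulk RNA, fewer cells of a type and less RNA per cell cannot be told apart.

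The promoters of the 3 melanin enzymes are shown because these genes share their textbook regulator, Mitf, and Tyrp1 and Dct passed in Norrin KO while Tyr did not. Each window runs from 250 bases before the RefSeq start site to 50 after it, on GRCm38.p6 and on the gene's own strand, 5′ to 3′. Capitals mark CATGTG, the core of the element bound by Mitf, on either strand (CACATG on the reverse one).
Tyrp1, chr4:80833963-80834262, plus strand: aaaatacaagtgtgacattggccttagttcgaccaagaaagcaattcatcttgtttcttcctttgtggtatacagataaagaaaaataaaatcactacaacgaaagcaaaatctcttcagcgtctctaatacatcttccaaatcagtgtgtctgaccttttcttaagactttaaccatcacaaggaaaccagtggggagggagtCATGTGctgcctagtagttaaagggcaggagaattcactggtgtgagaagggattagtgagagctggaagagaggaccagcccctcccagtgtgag
Dct, chr14:118052197-118052496, minus strand: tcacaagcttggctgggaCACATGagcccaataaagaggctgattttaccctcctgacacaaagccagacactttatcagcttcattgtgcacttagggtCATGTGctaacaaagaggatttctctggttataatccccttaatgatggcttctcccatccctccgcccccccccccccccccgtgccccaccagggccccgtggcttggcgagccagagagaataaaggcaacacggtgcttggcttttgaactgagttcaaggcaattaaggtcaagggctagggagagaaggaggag
Tyr, chr7:87493463-87493762, minus strand: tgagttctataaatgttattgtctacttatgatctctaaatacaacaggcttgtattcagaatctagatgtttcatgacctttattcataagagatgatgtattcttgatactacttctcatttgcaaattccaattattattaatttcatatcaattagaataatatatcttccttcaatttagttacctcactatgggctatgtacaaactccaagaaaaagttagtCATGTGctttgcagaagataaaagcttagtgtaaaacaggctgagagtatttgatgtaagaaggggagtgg
The match began 46 bases before the start in Tyrp1, 21 bases before it in Tyr, and 232 and 150 bases before it in Dct, the first of these on the reverse strand. In all 3 genes each match was preceded by T on its own strand (TCATGTG). Of the 7 members with a promoter entry, 4 held CATGTG: these 3 and Rpe65, with 1 match on the reverse strand 239 bases before its start. The windows of Lrat and Best1 and the 3 windows of Mitf held none. Of 32851 promoters of this length, 14.2% held CATGTG and 3.77% held TCATGTG, on either strand. A match is a description of letters and says nothing of binding in these cells.

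The values are deposited log2 signals, so 1 unit is a factor of 2, and they were used to compare arrays within a probe set, not 1 probe set with another. Array medians were 5.88 to 6.04. The mean signal of 10 pan-endothelial genes was 12.14 to 12.18 on Fz4-/- arrays, 11.99 to 12.12 on Lrp5-/- arrays, 11.85 to 12.19 on Norrin KO arrays and 11.85 to 12.12 on wild-type arrays. None of these genes was dim. Of the 10, 2 (Kdr and Emcn) were higher and 3 lower in the mean of the mutants. There 17.7% of all probe sets passed (10.3% higher). Fzd4 averaged 4.22 ± 0.30 on Fz4-/- arrays (SD, n = 3) and 12.09 ± 0.20 on wild-type arrays (SD, n = 6). Lrp5 averaged 4.91 ± 0.45 on Lrp5-/- arrays (n = 3) and 7.69 ± 0.27 on wild-type arrays (n = 6). Ndp, which encodes Norrin, was dim on all arrays, 4.13 ± 0.24 on Norrin KO arrays and 4.44 ± 0.19 on wild-type arrays, and so does not check that label. The gap between the 3′ and 5′ actin control probe sets, which widens with RNA degradation, was 2.92, 1.05 and 1.45 on the Norrin KO arrays and 0.56 to 1.04 on the other 12. The female gene Xist was low (4.12 to 4.98) and the male gene Eif2s3y high (9.77 to 10.32) on all 3 Norrin KO arrays, whereas Xist was 4.88 to 12.27 on wild-type arrays. Lrp5-/- arrays 1 and 3 and wild-type array 4 lay apart from the rest on the second principal component, which held 17.3% of the variance. Fz4-/- arrays were set beside wild-type arrays 1 to 3 and Lrp5-/- arrays beside wild-type arrays 4 to 6. Deviations were taken from the mean of each mutant group and of each wild-type set, across all probe sets. Within its set, each Fz4-/- array deviated most like the wild-type array of its number (correlations of deviations 0.251, 0.279 and 0.334). Lrp5-/- arrays 1 to 3 deviated most like wild-type arrays 4 to 6 in that order (0.682, 0.543 and 0.315). Neither mutant was compared in this way with the other wild-type set, so the choice of set was not tested. Xist and Eif2s3y differed by at most 0.43 and 0.56 within these 6 pairs. These array sets were read from the data, not from the labels. The Norrin KO arrays were not compared in this way with either wild-type set. A fit of the other 12 arrays with the 6 pairs as a block, added after the data were seen, is given where it changed a call.

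On the Norrin KO arrays Tyrp1, Dct, Mlana and Mitf rose by 2.65-fold to 6.39-fold over wild type at the probe sets that passed, while Tyr and Pmel did not pass. Tyrp1 1415862_at (1.4-fold) and Mitf 1422025_at (1.04-fold) did not pass there. Mitf, at 1455214_at, was the 1 member that was higher in each of the 3 mutants. The visual-cycle genes Rpe65 and Lrat and the RPE channel gene Best1 passed in no comparison of the model of all 15 arrays. Ttr was lower in Fz4-/- arrays, a call that was lost with the array sets as a block. By limma, fitted to all 45037 probe sets that are no controls, at a Benjamini-Hochberg adjusted p of 0.05, 5 of the 19 member probe sets were higher and none lower in Norrin KO arrays, where 20.5% of all probe sets passed (11.9% higher). In Fz4-/- arrays 1 was higher and 3 were lower, where 12% of all passed (7.7% higher, 4.25% lower). In Lrp5-/- arrays 1 was higher and none lower, where 7.69% of all passed (3.51% higher). In the mean of the 3 mutants 5 were higher and none lower, where 17.7% of all passed (10.3% higher). The members are not independent, since Ttr has 4 of the 19 probe sets and Tyrp1 and Tyr 3 each. The median log2 difference of the 19 was 0.09 in Norrin KO, 0.13 in Lrp5-/- and -0.31 in Fz4-/-, beside -0.02, 0 and -0.04 over all probe sets. Of Norrin KO minus Fz4-/- the median was 0.84, beside 0.02 over all, with 10 of the 19 higher and without overlap (11.9% of all probe sets) and 2 past the threshold (1.21% of all). The 3 mutants are compared with the same 6 wild-type arrays, so their differences are not independent.

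**Figure D1:**
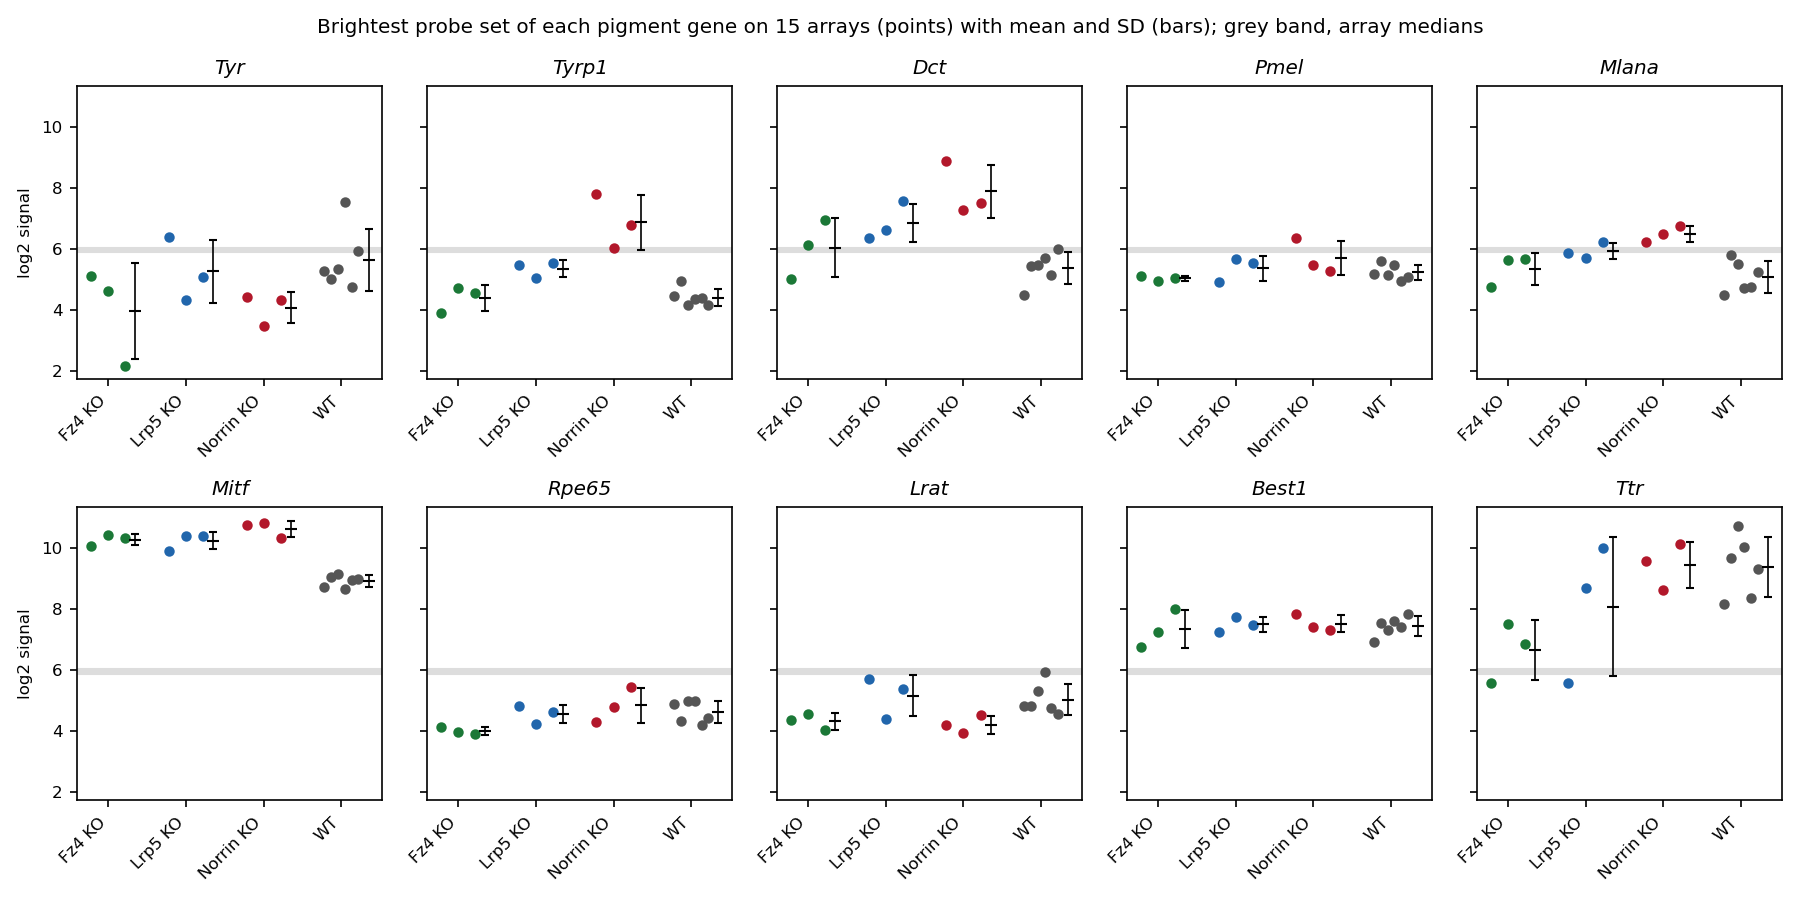
Log2 signal (vertical axis) of the brightest probe set of each of the 10 genes on every array, with 1 point per array, the group mean and SD as bars, and the range of array medians (5.88 to 6.04) as a grey band; groups run Fz4-/-, Lrp5-/-, Norrin KO and wild type (WT). Tyrp1 and Mlana are highest on average in Norrin KO, Mitf is above wild type on all 9 mutant arrays, and Ttr is low in Fz4-/- and on Lrp5-/- array 1.

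**Figure D2:**
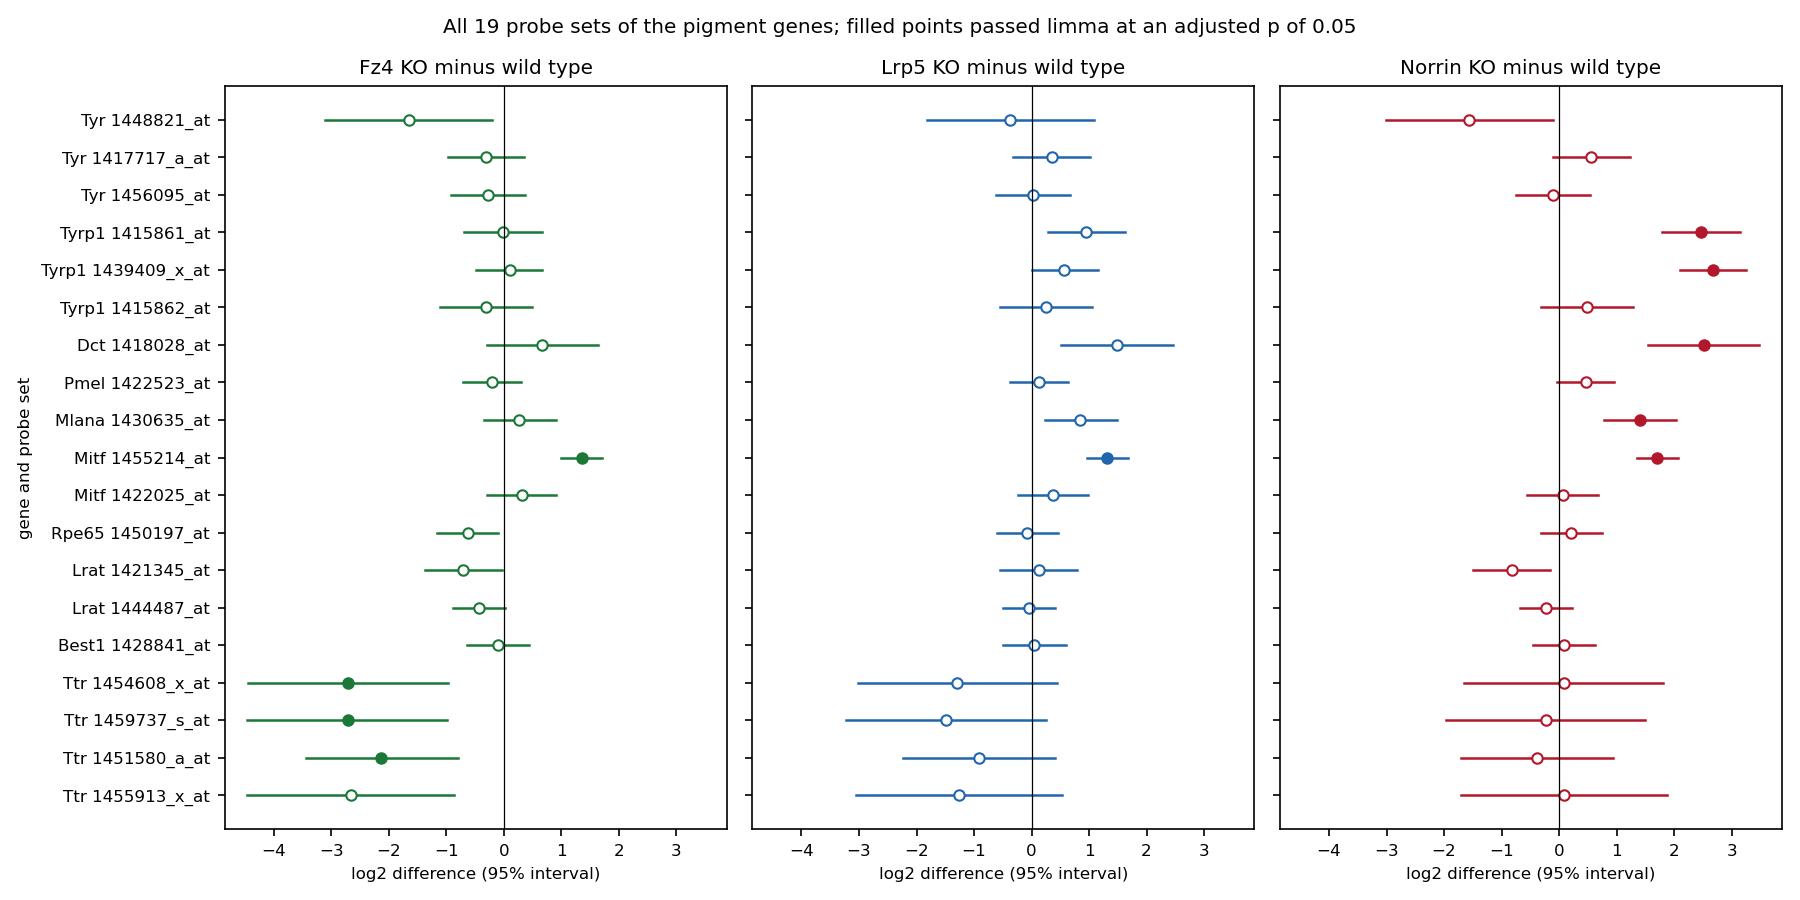
Log2 difference of each mutant from wild type for all 19 probe sets, with 95% intervals from limma; filled points passed at an adjusted p of 0.05. In Norrin KO 2 probe sets of Tyrp1 and those of Dct, Mlana and Mitf are filled, in Lrp5-/- Mitf 1455214_at only, and in Fz4-/- Mitf 1455214_at and 3 probe sets of Ttr.

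Tyrosinase, the enzyme that commits a cell to melanin, passed in no comparison at any of its 3 probe sets. Its brightest probe set, 1448821_at, read 5.12, 4.60 and 2.17 on the Fz4-/- arrays, 6.38, 4.31 and 5.08 on the Lrp5-/- arrays, and 4.41, 3.47 and 4.33 on the Norrin KO arrays. The wild-type arrays ran from 4.73 to 7.52 with a median of 5.29. All 3 Norrin KO arrays lay below all 6 wild-type arrays, as 9.49% of all probe sets did in that direction, while the other mutants overlapped wild type. The differences from wild type were -1.66 ± 0.68 (SE) in Fz4-/-, -0.37 ± 0.68 in Lrp5-/- and -1.56 ± 0.68 in Norrin KO, with limma adjusted p of 0.139, 0.883 and 0.119. Set against its matched wild-type array, each Fz4-/- array (-0.13, -0.41 and -3.16) and each Lrp5-/- array (-1.13, -0.42 and -0.85) was lower, and neither mutant passed with the array sets as a block (-1.23 and -0.80, adjusted p = 0.181 and 0.402). The spread within groups was wide, with SDs of 1.57, 1.05, 0.52 and 1.01 in Fz4-/-, Lrp5-/-, Norrin KO and wild type.

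The 2 highest Tyr readings came from Lrp5-/- array 1 and wild-type array 4. These arrays also had the highest lower quartiles of all probe sets, 4.25 and 4.30 beside 3.90 to 4.11 on the rest, and the part of that in the Tyr reading was not tested. The other Tyr probe sets were below the array median on all 15 arrays: 1417717_a_at read 2.81 to 4.66 and 1456095_at read 2.30 to 3.91. In the Norrin KO arrays 1417717_a_at stood at +0.56 ± 0.31 and 1456095_at at -0.11 ± 0.30 from wild type, so the 3 probe sets of Tyr differed in sign, and none passed (limma adjusted p = 0.223 and 0.828). Tyr 1448821_at entered the search for like patterns only through wild-type array 4, the 1 array on which it was above 7. The 5 genes most like it over the 15 arrays were Gm7969 (r = 0.96), Olfr156 (0.95), Vmn1r51, Gria2 and Odf4 (0.94 each). Within groups r was 0.92 to 0.95, and without the 2 arrays farthest from the Tyr median it was 0.79 to 0.91. Apart from Gm7969, the names are those of olfactory and vomeronasal receptors, a glutamate receptor and a sperm-tail protein. No pigment gene was among the 5.

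Tyrp1, which oxidises a late melanin intermediate in the mouse, gave the largest rise of the set. Probe set 1415861_at read 3.89, 4.71 and 4.55 on Fz4-/- arrays, 5.46, 5.05 and 5.55 on Lrp5-/- arrays, and 7.81, 6.01 and 6.79 on Norrin KO arrays. Wild-type arrays ran from 4.15 to 4.94 with a median of 4.36. All Norrin KO arrays lay above every other array. In that direction 12.4% of all probe sets were clear of wild type in Norrin KO. All Lrp5-/- arrays lay above wild type (as 6.24% of all probe sets did), and the Fz4-/- arrays overlapped wild type. All 6 wild-type arrays were below the array median at this probe set and at 1439409_x_at, so the folds are of RMA signals over a dim baseline that is not shown to be above background. Against wild type the difference was +2.47 ± 0.32 in Norrin KO, a 5.54-fold rise (limma adjusted p = 8.94e-05). It was +0.95 ± 0.32 in Lrp5-/- (adjusted p = 0.0903, not passed, but 0.0232 with the array sets as a block) and -0.02 ± 0.32 in Fz4-/- (adjusted p = 0.982, 95% interval -0.69 to 0.66).

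A second Tyrp1 probe set, 1439409_x_at, gave the same order of mutants. It read 7.16, 6.24 and 6.48 on Norrin KO arrays, beside 3.29 to 4.30 on the wild-type arrays, a 6.39-fold rise (+2.67 ± 0.27, limma adjusted p = 1.05e-05). On Lrp5-/- arrays it read 4.77, 4.12 and 4.68 (+0.57 ± 0.27, adjusted p = 0.267, and +0.80 with 0.0314 under that block), and on Fz4-/- arrays 3.53, 4.24 and 4.37 (+0.10 ± 0.27, adjusted p = 0.858). The dim probe set 1415862_at, at 2.30 to 4.31 on all arrays, passed in no comparison (Norrin KO +0.48 ± 0.37, adjusted p = 0.385). Over the 15 arrays the 2 brighter probe sets correlated at r = 0.95, and within groups at 0.75; they share arrays and RNA.

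The difference between mutants was tested directly for Tyrp1. Norrin KO exceeded Fz4-/- by 2.49 at 1415861_at (limma adjusted p = 0.00964) and by 2.58 at 1439409_x_at (0.00338), in a comparison in which 1.21% of all probe sets passed (0.648% higher). Norrin KO exceeded Lrp5-/- by 1.52 (0.0256) and 2.10 (0.00327), where 7.44% of all passed (5.27% higher). Each Norrin KO array was above each array of the other mutant at both probe sets, as 11.9% of all probe sets were against Fz4-/- and 16% against Lrp5-/-. These 2 probe sets were the only member probe sets that passed between mutants, and between Fz4-/- and Lrp5-/- no member passed by limma, where 0.14% of all did (2 members at an unadjusted p under 0.05). The Lrp5-/- comparison at 1415861_at lost its call when any of 5 single arrays was left out, Lrp5-/- 1, 2 or 3 or Norrin KO 1 or 3 (adjusted p 0.0536 to 0.0804). Without the 3 arrays that lay apart, which leaves 1 Lrp5-/- array, Norrin KO exceeded Lrp5-/- by 1.82 at 1415861_at and 2.5 at 1439409_x_at, and neither passed (0.316 and 0.109). Without Fz4-/- array 1 the comparison with Fz4-/- at that probe set came to 2.24 (adjusted p = 0.0503).

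Dct, or dopachrome tautomerase, is made early in the melanocyte lineage and acts one step before Tyrp1. It read 8.87, 7.28 and 7.50 on Norrin KO arrays and 6.37, 6.63 and 7.56 on Lrp5-/- arrays, all 6 above the wild-type range of 4.47 to 6.00. In that direction 12.4% of all probe sets were clear of wild type in Norrin KO and 6.24% in Lrp5-/-. The Fz4-/- arrays, at 5.01, 6.14 and 6.95, overlapped wild type. The rise was 5.72-fold in Norrin KO (+2.52 ± 0.45, limma adjusted p = 0.00137). Dct was above the array median on only 1 of the 6 wild-type arrays, so this fold too is over a dim baseline. In Lrp5-/- the difference was +1.49 ± 0.45 (adjusted p = 0.0622) and in Fz4-/- +0.67 ± 0.45 (adjusted p = 0.393). With the array sets as a block both passed, at +1.24 in Lrp5-/- (adjusted p = 0.02) and +0.91 in Fz4-/- (0.0469). The mutants were in the same order as for Tyrp1, but no difference between them passed: Norrin KO minus Fz4-/- was 1.85 (adjusted p = 0.0962) and Norrin KO minus Lrp5-/- 1.03 (0.226).

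Mlana, the melanosome antigen MART-1, read 6.21, 6.49 and 6.75 on Norrin KO arrays, 5.85, 5.71 and 6.23 on Lrp5-/- arrays, and 4.74, 5.63 and 5.67 on Fz4-/- arrays. Wild-type arrays ran from 4.48 to 5.78. Only the Norrin KO arrays were clear of wild type, as 12.4% of all probe sets were in that direction. The difference was +1.41 ± 0.29 in Norrin KO, a 2.65-fold rise (limma adjusted p = 0.0037), +0.85 ± 0.29 in Lrp5-/- (0.103, and +1.04 with 0.00422 with the array sets as a block) and +0.27 ± 0.29 in Fz4-/- (0.608).

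Pmel, the fibril protein of the melanosome, passed in no comparison. It read 6.34, 5.48 and 5.27 on Norrin KO arrays, 4.90, 5.66 and 5.53 on Lrp5-/- arrays, and 5.10, 4.94 and 5.04 on Fz4-/- arrays, against 4.94 to 5.59 on wild-type arrays. Norrin KO array 1 alone stood above the rest. The Norrin KO difference of +0.46 ± 0.23 had a 95% interval of -0.04 to 0.96 and did not pass (limma adjusted p = 0.177).

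Norrin KO array 1 had the widest actin gap and also the highest Tyrp1, Dct and Pmel signals. Without it the 4 genes kept their calls in Norrin KO: Tyrp1 1415861_at at +2.00 (limma adjusted p = 0.000348), Dct at +2.02 (0.0119), Mlana at +1.54 (0.00896) and Mitf at +1.65 (9.21e-05). The part of RNA quality in the remaining differences was not tested. All 3 Norrin KO arrays also read as male by Xist and Eif2s3y, and the part of sex was not tested.

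Mitf, the regulator, was higher in each mutant. Probe set 1455214_at read 10.09, 10.45 and 10.33 on Fz4-/- arrays, 9.93, 10.41 and 10.41 on Lrp5-/- arrays, and 10.77, 10.82 and 10.35 on Norrin KO arrays. Wild-type arrays ran from 8.68 to 9.17 with a median of 8.98. All 9 mutant arrays lay above all 6 wild-type arrays, as 3.36% of all probe sets did. The rise was 2.56-fold in Fz4-/- (+1.36 ± 0.17, limma adjusted p = 6.59e-05), 2.49-fold in Lrp5-/- (+1.31 ± 0.17, 0.000133) and 3.27-fold in Norrin KO (+1.71 ± 0.17, 7.14e-06). No difference between mutants passed. The other probe set, 1422025_at, at 5.30 to 6.63 on all arrays, passed nowhere (mean of the mutants +0.24 ± 0.21, adjusted p = 0.486), so the rise was seen by 1 of 2 probe sets.

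Mitf is also used by macrophages, osteoclasts and mast cells, and the genes most like it over the 15 arrays were not melanin genes. The 5 with the highest r were Ms4a7 at 0.98 and Pla1a, Tbx20, Art3 and Cybb at 0.97 (Spearman's rho 0.97, 0.89, 0.88, 0.87 and 0.91), values that rest largely on the split between mutant and wild-type arrays. Within groups r was 0.85 for Ms4a7 and Cybb, both genes of macrophages, and 0.53 to 0.67 for the other three. The mean signal of 12 macrophage and microglia markers was 9.63 to 10.16 in Fz4-/-, 9.21 to 9.77 in Lrp5-/- and 9.57 to 10.20 in Norrin KO, beside 7.99 to 9.42 in wild type. In the mean of the mutants 5 of these 12 were higher and none lower, among them Mrc1 (+3.68 ± 0.47), Cd163 (+2.44 ± 0.31) and Lyz2 (+1.75 ± 0.22). Of all probe sets 10.3% were higher in that comparison. Itgam was dim on all arrays. The part of these cells in the Mitf signal was not tested.

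Tyrp1 1415861_at entered the search for like patterns only through Norrin KO array 1, the one array on which it was above 7, and correlations over all arrays largely restate its rise in Norrin KO. Trpm1, a channel of melanocytes and of retinal ON bipolar cells, had r = 0.92 and rho = 0.95 with Tyrp1 1415861_at over 15 arrays, and r = 0.89 without the 2 arrays farthest from the Tyrp1 median, but 0.54 within groups. Prr12, Ccbe1, Eqtn and Zmynd8 followed at 0.92, 0.90, 0.89 and 0.88, and fell to 0.68, 0.58, 0.67 and 0.59 without those 2 arrays, with 0.77, 0.81, 0.60 and 0.52 within groups. For Dct the 5 were Tigd3, Myo7a and Asap3 at 0.88 and Dsel and Trpm1 at 0.87, with 0.43 within groups for Trpm1 and 0.63 to 0.71 for the others. Between members, r was 0.86 for Tyrp1 with Dct, 0.78 for Tyrp1 with Mlana and 0.83 for Dct with Mlana, and 0.56, 0.23 and 0.45 within groups. These are descriptions over arrays that share their groups.

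Of the visual-cycle genes, Rpe65, the isomerase that regenerates 11-cis retinol in the RPE, was below the array median on all 15 arrays. It read 4.14, 3.98 and 3.91 on Fz4-/- arrays, 4.82, 4.25 and 4.62 on Lrp5-/- arrays, and 4.31, 4.79 and 5.44 on Norrin KO arrays, against 4.19 to 4.99 on wild-type arrays. The Fz4-/- arrays were all below wild type, as 7.79% of all probe sets were in that direction, but the difference of -0.63 ± 0.25 did not pass (limma adjusted p = 0.125). It passed with the array sets as a block (-0.73, adjusted p = 0.0292). In Norrin KO, where Tyrp1 and Dct were high, Rpe65 stood at +0.21 ± 0.25 (95% interval -0.32 to 0.74, adjusted p = 0.574).

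Lrat, the acyltransferase that supplies Rpe65 with retinyl esters, was likewise below every array median. Probe set 1421345_at read 4.36, 4.58 and 4.04 on Fz4-/- arrays, 5.72, 4.41 and 5.37 on Lrp5-/- arrays, 4.19, 3.94 and 4.52 on Norrin KO arrays, and 4.57 to 5.93 on wild-type arrays. The Norrin KO arrays were all below wild type, but narrowly, as 9.49% of all probe sets were in that direction. The difference of -0.82 ± 0.31 did not pass (limma adjusted p = 0.0761). Its highest readings were again on Lrp5-/- array 1 and wild-type array 4, and over 15 arrays it correlated with Tyr 1448821_at at r = 0.83, and at 0.74 within groups. The second probe set, 1444487_at, was at 2.30 to 3.58 on all arrays and passed nowhere.

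Best1, the calcium-activated chloride channel of the RPE basal membrane, was above the array median on every array and overlapped between all genotypes. It read 6.76, 7.27 and 8.0 on Fz4-/- arrays, 7.26, 7.75 and 7.50 on Lrp5-/- arrays, and 7.86, 7.41 and 7.33 on Norrin KO arrays, against 6.92 to 7.86 on wild-type arrays. The mean of the mutants differed from wild type by 0.01 ± 0.19, with a 95% interval of -0.39 to 0.42 (limma adjusted p = 0.976). The 5 genes most like it were Klk4 (r = 0.82), Dcpp1 (0.76), Gm30873, Mocs3 and 4930509K18Rik (0.73 each). All 5 were dim, at 2.20 to 4.18 over the arrays. Without the 2 arrays farthest from the Best1 median r was 0.56 to 0.72.

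Ttr, transthyretin, is made in the eye by the RPE and the ciliary epithelium, and in the brain by the choroid plexus. Its brightest probe set, 1454608_x_at, read 5.59, 7.53 and 6.87 on Fz4-/- arrays, 5.58, 8.69 and 10.00 on Lrp5-/- arrays, 9.59, 8.64 and 10.15 on Norrin KO arrays, and 8.17, 9.68, 10.72, 10.03, 8.36 and 9.32 on wild-type arrays 1 to 6. All Fz4-/- arrays were below all wild-type arrays, as 7.79% of all probe sets were. Lrp5-/- array 1 was as low as the lowest Fz4-/- array while the other Lrp5-/- arrays were in the wild-type range. The difference in Fz4-/- was -2.72 ± 0.81 (limma adjusted p = 0.0417).

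The other 3 probe sets of Ttr gave the same pattern, with correlations between probe sets of 0.95 to 1 over the 15 arrays. In Fz4-/- arrays 1459737_s_at stood at -2.72 ± 0.81 (limma adjusted p = 0.041), 1451580_a_at at -2.13 ± 0.62 (0.0371) and 1455913_x_at at -2.66 ± 0.84 (0.0533, not passed). All 4 Ttr probe sets were lower with no overlap, as 7.79% of all probe sets were. Probe sets with such suffixes can also detect related transcripts. At 1454608_x_at the difference was -1.29 ± 0.81 in Lrp5-/- (0.466) and +0.08 ± 0.81 in Norrin KO (0.959, 95% interval -1.65 to 1.81). Norrin KO exceeded Fz4-/- by 2.79 there, which did not pass (0.152), and no Ttr difference between mutants passed. The Fz4-/- calls sat close to the threshold: for 1454608_x_at 8 of 15 single arrays ended the call when left out (each Fz4-/- array, Norrin KO 3 and wild-type 2, 3, 4 and 6), with adjusted p up to 0.193 without Fz4-/- array 1. For 1459737_s_at Lrp5-/- 2 stood in place of Norrin KO 3 (up to 0.173), and for 1451580_a_at 5 arrays did so, Fz4-/- 1 and 3 and wild-type 2, 3 and 4 (up to 0.159). Against wild-type arrays 1 to 3 alone the 3 called probe sets gave -2.86, -2.99 and -2.33, with adjusted p of 0.109, 0.0888 and 0.0812. With the array sets as a block the differences were the same and the adjusted p 0.0888, 0.0813 and 0.0619, so none passed; all 3 Fz4-/- arrays were below their matched wild-type array.

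**Figure D3:**
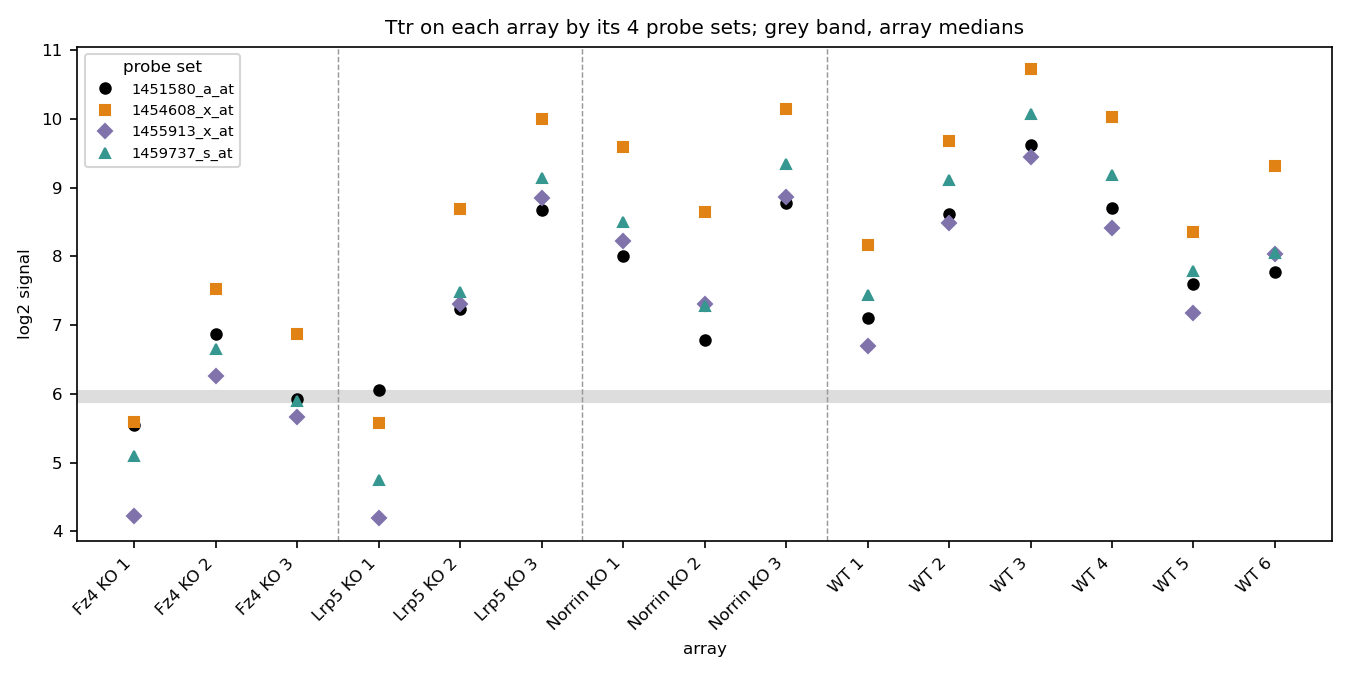
Log2 signal (vertical axis) of the 4 Ttr probe sets, each with its own symbol, on each of the 15 arrays; dashed lines part Fz4-/-, Lrp5-/-, Norrin KO and wild type (WT), and the grey band is the range of array medians. The 4 probe sets rise and fall together, with 1454608_x_at at 5.59 to 7.53 in Fz4-/-, 5.58 on Lrp5-/- array 1 and 8.17 to 10.72 in wild type.

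Markers of the ciliary and iris epithelium, which also makes Ttr, were set beside these values. The mean of 8 such markers, Ttr included, was 7.55 to 8.13 in Fz4-/-, 7.56 to 8.06 in Lrp5-/-, 7.86 to 8.20 in Norrin KO and 7.59 to 8.04 in wild type, and the groups overlapped. In Fz4-/- Cp was lower with Ttr (-0.64 ± 0.15, limma adjusted p = 0.0101) and Cryab higher (+0.78 ± 0.20, 0.0187), and in Norrin KO the transporter gene Slc4a5 was higher (+1.61 ± 0.43, 0.0157). Otx1 was dim on all arrays. The 5 genes most like Ttr over the arrays were Ankrd13d, Mllt3, Dnajc5g, Ccser2 and Mos (r = 0.84, 0.82, 0.80, 0.80 and 0.78), which fell to 0.55 to 0.68 without the 2 farthest arrays.

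Beyond the 10 genes, 17 other genes of pigment cells were listed and 16 were measured. In the mean of the mutants 4 of the 16 were higher and none lower (median 0.01, beside -0.02 over all probe sets): Kit, Ednrb, Bace2 and Trpm1. In Norrin KO 5 were higher and 1 lower, in Lrp5-/- 4 and 0, and in Fz4-/- 3 and 0. Of all probe sets 10.3% were higher in the mean of the mutants, 11.9% in Norrin KO, 3.51% in Lrp5-/- and 7.7% in Fz4-/-. The other 12 did not pass in the mean of the mutants, and 6 of the 16 were below the array median on all arrays: Slc45a2, Oca2, Mc1r, Sox10, Rab38 and Tspan10. Slc45a2 and Oca2 act in the melanosome, Mc1r is the melanocortin receptor, and Sox10 is a neural-crest factor of the melanocyte lineage. A signal below the array median does not show that a transcript is absent. The part of melanocytes in these values was not tested. On the Norrin KO arrays Mc1r was lower by limma at 1422069_at (-0.67 ± 0.17, adjusted p = 0.0137) and stood at +0.05 at 1435393_at (0.9). The fifth gene higher in Norrin KO, beside those 4, was Gpnmb, a glycoprotein of melanosomes and of macrophages, at 1448303_at (+1.05 ± 0.32, adjusted p = 0.0344), while its other probe set stood at -0.76 ± 0.35 (0.146).

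Kit, the receptor tyrosine kinase of melanoblasts and mast cells, read 7.88 to 9.36 on the 9 mutant arrays and 4.30 to 5.70 on wild-type arrays. Its differences were +4.40 ± 0.33 in Fz4-/-, +3.75 ± 0.33 in Lrp5-/- and +3.91 ± 0.33 in Norrin KO (limma adjusted p = 5.72e-07, 4.25e-06 and 1.93e-06). Ednrb, the endothelin receptor needed by melanoblasts and also present on vascular cells, read 12.40 to 12.86 on mutant arrays and 8.04 to 10.00 on wild-type arrays (mean of the mutants +3.55 ± 0.21, 3.18e-08). Bace2, a protease that cuts Pmel in pigment cells, was higher by 2.70 ± 0.18 (8.53e-08). These 3 genes passed in each mutant, as Mitf did. Both other probe sets of Ednrb, the other one of Kit and the other 4 of Bace2 also passed in the mean of the mutants.

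Trpm1 followed the pattern of Tyrp1 at probe set 1437445_at. It read 6.96, 6.38 and 7.21 on Norrin KO arrays, 5.37, 5.35 and 6.42 on Lrp5-/- arrays and 4.45, 4.86 and 5.05 on Fz4-/- arrays, against 4.09 to 4.53 on wild-type arrays. The Norrin KO and Lrp5-/- arrays were all above wild type, as 12.4% and 6.24% of all probe sets were in that direction. Its differences were +2.45 ± 0.25 in Norrin KO (limma adjusted p = 1.11e-05), +1.31 ± 0.25 in Lrp5-/- (0.00384) and +0.39 ± 0.25 in Fz4-/- (0.365). Norrin KO exceeded Fz4-/- by 2.06 (0.00695) and Lrp5-/- by 1.14 (0.0306). Of its other 3 probe sets, 1418935_at (+1.60, 0.0116) and 1437531_at (+0.80, 0.0212) were also higher in Norrin KO, and 1440241_at stood at -0.47 (0.121).

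Of 23 other RPE genes, 20 were measured, and 3 were higher and 3 lower in the mean of the mutants (median -0.11). In Norrin KO 5 were higher and 2 lower, in Lrp5-/- 2 and 3, and in Fz4-/- 3 and 3. Of all probe sets 17.7% passed in the mean of the mutants (10.3% higher) and 20.5% in Norrin KO (11.9% higher). The shares were 7.69% in Lrp5-/- (3.51% higher) and 12% in Fz4-/- (7.7% higher). Crabp1, Slc6a20a, Col8a2, Cldn19 and Rbp4 were below the median on all arrays. The largest change was in Stra6, the receptor that takes up retinol from its binding protein, which read 6.23 to 7.77 on mutant arrays and 10.85 to 11.35 on wild-type arrays (mean of the mutants -4.13 ± 0.22, limma adjusted p = 7.89e-09). Stra6 is also made by the endothelium of the blood-retina barrier.

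The other changes among these genes ran both ways. Sulf1, an extracellular sulfatase, was higher by 2.05 ± 0.20 (limma adjusted p = 4.41e-06) and Rdh10, a retinol dehydrogenase, by 0.94 ± 0.14 (0.000186), each in all 3 mutants at the brightest probe set. At 1460632_at Rdh10 was higher in Fz4-/- (+0.71, 0.0222) and Lrp5-/- (+0.69, 0.0362) but did not pass in Norrin KO (+0.39, 0.154). Serpinf1, or PEDF, was higher in Fz4-/- (+1.82 ± 0.26, 0.000273) and Norrin KO (+1.52 ± 0.26, 0.000983) and stood at -0.05 ± 0.26 in Lrp5-/- (0.972). At 1453724_a_at it was higher in Fz4-/- (+2.11, 0.00277) but did not pass in Norrin KO (+0.93, 0.118). Slc6a20a (-1.26 ± 0.31, 0.00969) and the phagocytosis receptor Mertk (-0.30 ± 0.10, 0.0454) were lower in the mean of the mutants. Both passed in Fz4-/- and Lrp5-/-, but neither did in Norrin KO (-0.61, 0.314 for Slc6a20a and +0.02, 0.914 for Mertk). Slc26a7, an anion transporter, was higher in Norrin KO at 1436279_at (+2.57 ± 0.47, 0.00162) but did not pass at 1425841_at (-0.54, 0.393). Rdh5, the RPE 11-cis retinol dehydrogenase, was higher in Norrin KO by 0.64 ± 0.21 (0.0492), and Rlbp1, which is shared with Muller glia, was lower by 1.80 on the log2 scale (0.00307).

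**Figure D4:**
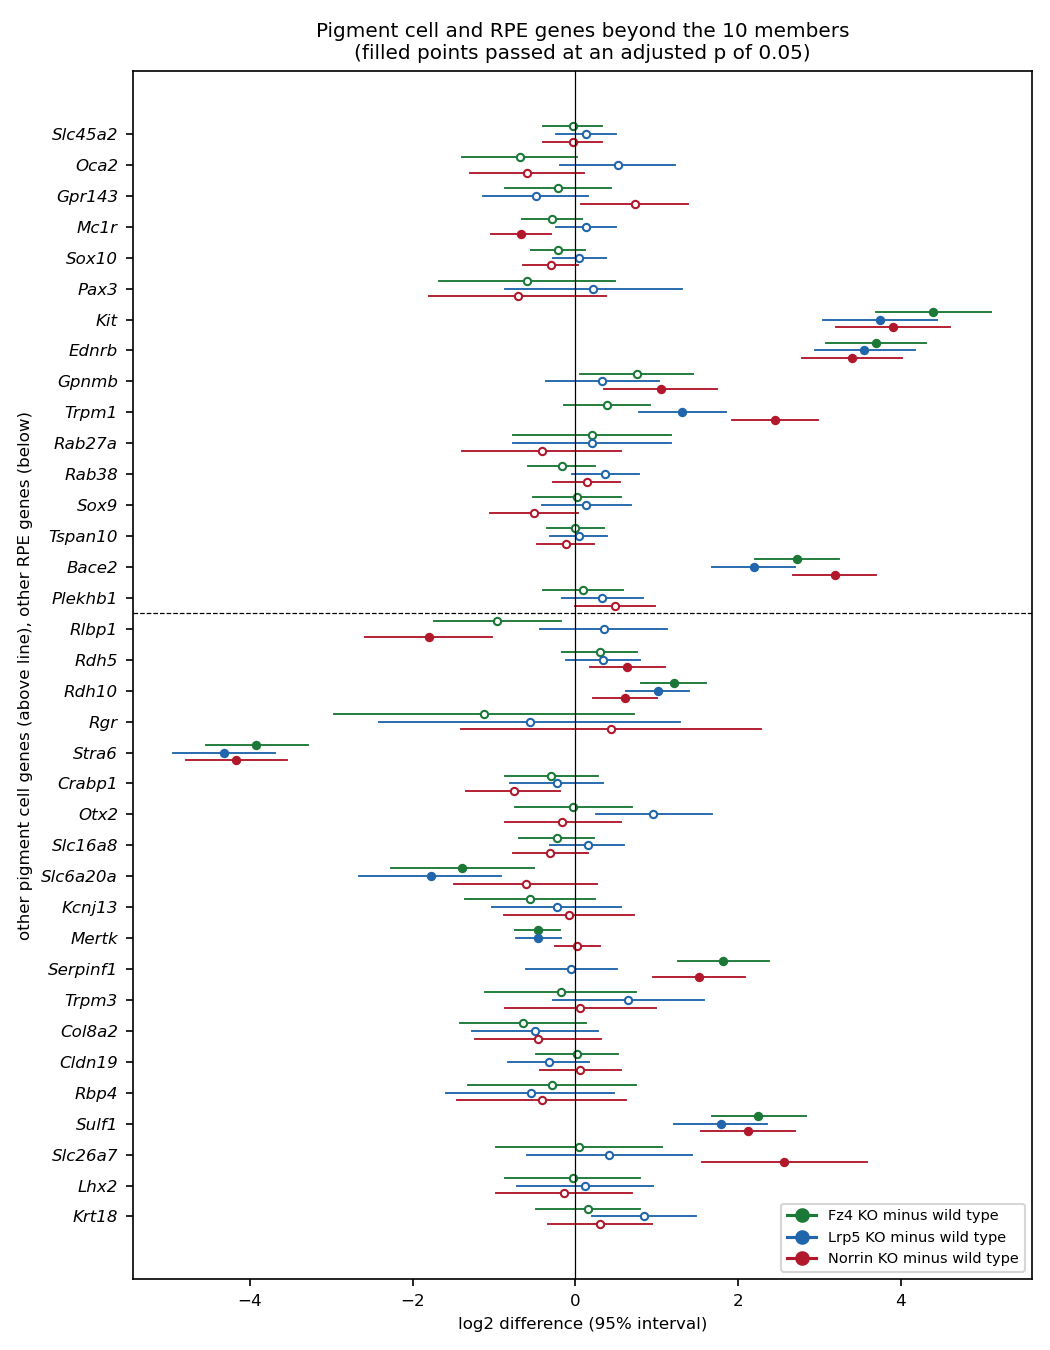
Log2 difference from wild type (horizontal axis) with 95% intervals from limma for 16 other pigment cell genes (above the dashed line) and 20 other RPE genes (below it), in Fz4-/-, Lrp5-/- and Norrin KO; filled points passed at an adjusted p of 0.05. Kit, Ednrb, Bace2 and Sulf1 lie to the right and Stra6 to the left in each mutant. The Trpm1 point of Norrin KO lies to the right of the Trpm1 points of the other mutants.

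The mean signals of both lists overlapped between Norrin KO and the other mutants. The other pigment genes averaged 6.46 to 6.63 in Fz4-/-, 6.63 to 6.87 in Lrp5-/- and 6.57 to 6.76 in Norrin KO, all above the 5.89 to 5.99 of wild type. Kit, Ednrb, Bace2 and Trpm1, with the large differences given above, carry most of that gap, while 12 of the 16 did not pass in the mean of the mutants and the list's median difference was 0.01. The other RPE genes averaged 6.03 to 6.47 in Fz4-/-, 6.35 to 6.45 in Lrp5-/-, 6.35 to 6.76 in Norrin KO and 6.17 to 7.03 in wild type, with overlap throughout.

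Markers of other cells that the beads could carry were read beside the pigment genes. Of all probe sets 17.7% passed in the mean of the mutants (10.3% higher). Of 8 fibroblast and stroma markers, 1 (Col1a2) was higher and 2 (Col1a1 and Dcn) lower in the mean of the mutants, with means of 8.72 to 8.95 in Fz4-/-, 8.57 to 8.88 in Lrp5-/-, 9.29 to 9.69 in Norrin KO and 9.21 to 9.55 in wild type; Lum was dim. The Norrin KO arrays, with the high Tyrp1, Dct and Mlana, lay above the other mutants and across the wild-type range in this list, and its part in those genes was not tested. Of 13 measured rod and cone markers 1, Gnat1, was higher in the mean of the mutants (+1.44 ± 0.22, limma adjusted p = 0.000305), with list means of 5.49 to 6.53 in Fz4-/-, 6.04 to 7.07 in Lrp5-/-, 5.04 to 6.36 in Norrin KO and 5.34 to 5.90 in wild type. Pde6a and Prph2 were dim. Of 9 Muller glia markers 2 (Apoe and Clu) were higher and 1 (Glul) lower in that mean, with list means of 10.61 to 11.43 in Fz4-/-, 11.24 to 11.62 in Lrp5-/-, 10.39 to 10.89 in Norrin KO and 10.34 to 11.19 in wild type. Of 8 pericyte and smooth muscle markers 2 (Cspg4 and Abcc9) were higher and 1 (Tagln) lower, with means of 11.55 to 12.11 over all arrays.

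**Figure D5:**
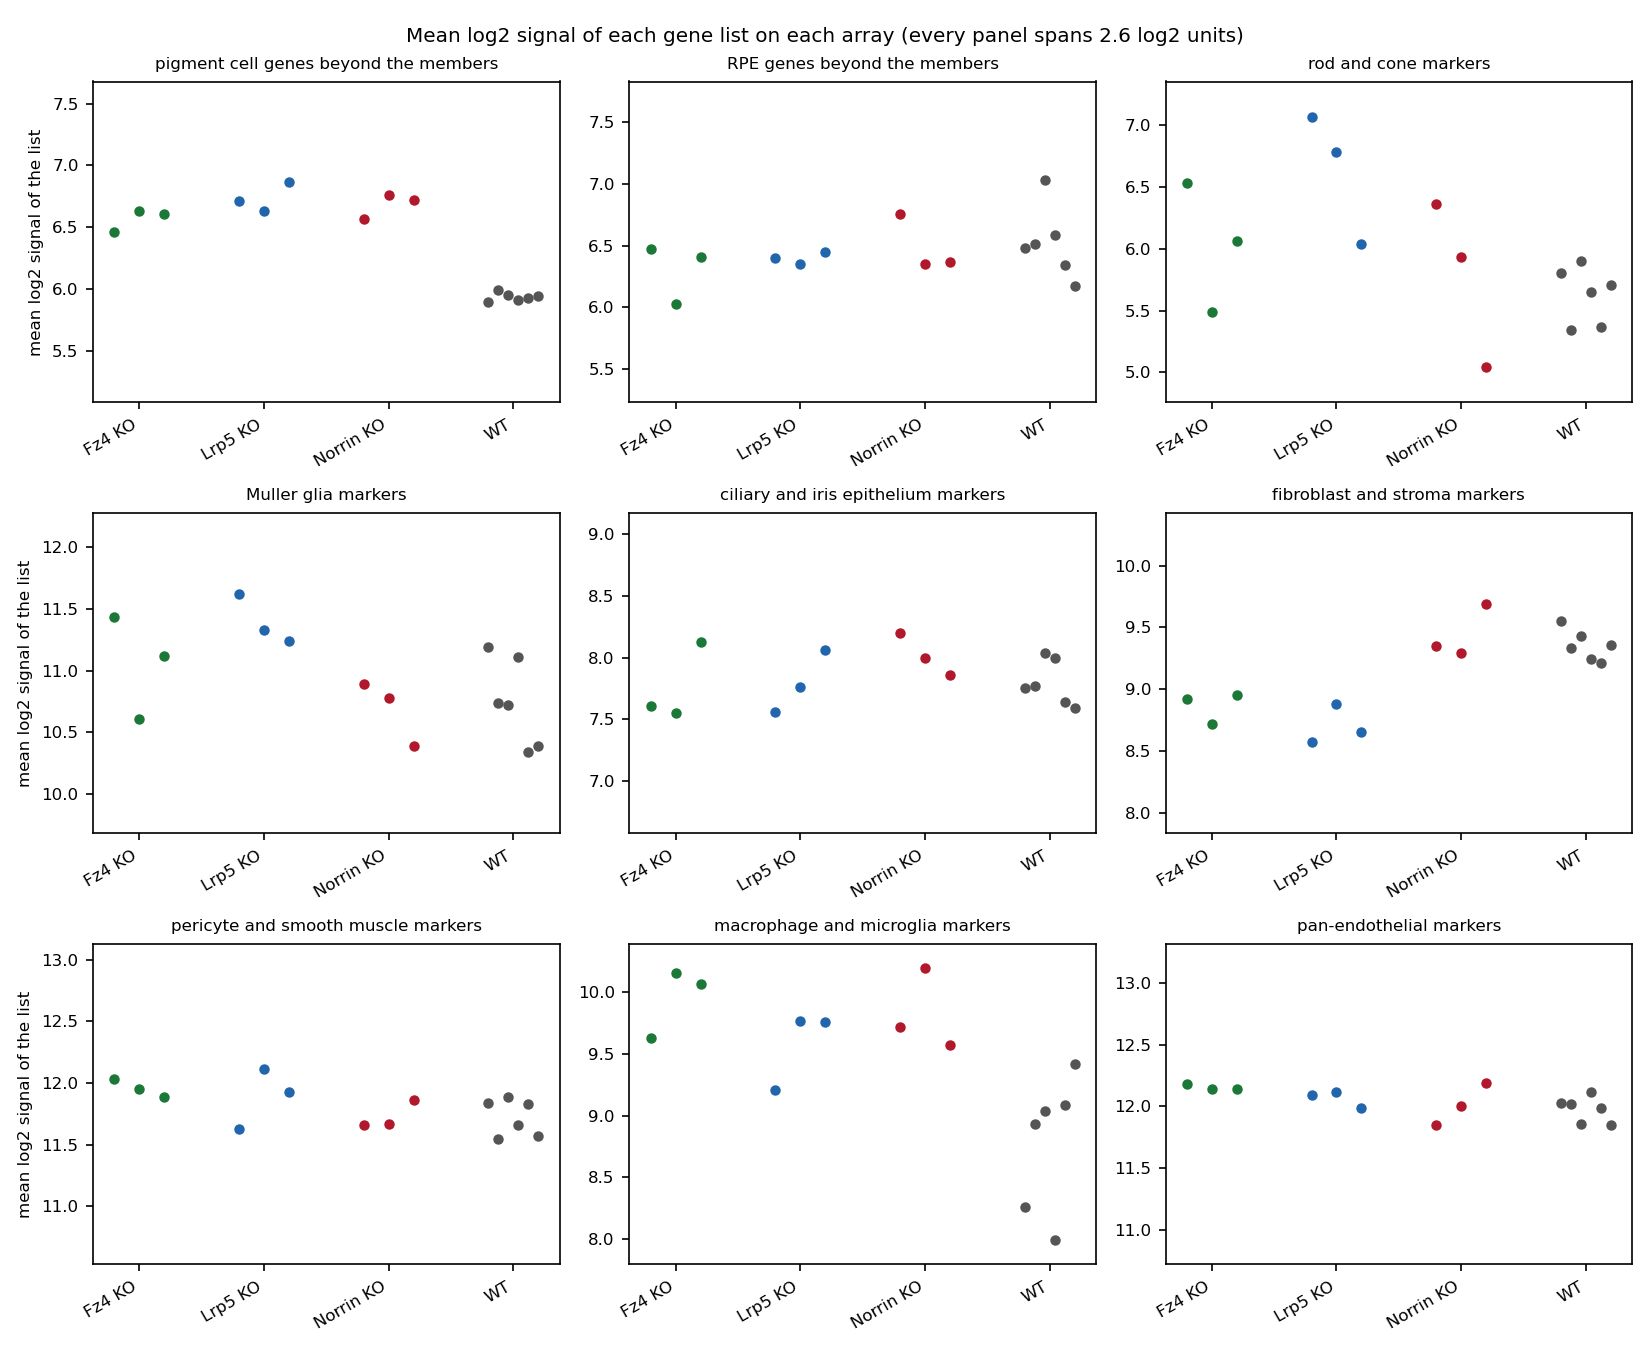
Mean log2 signal of 9 gene lists (1 panel each) on every array, in Fz4-/-, Lrp5-/-, Norrin KO and wild type (WT), with 1 point per array; every panel spans the same number of log2 units but starts at its own level. The other pigment cell genes lie at 6.46 to 6.87 on mutant arrays and 5.89 to 5.99 in wild type, a gap to which Kit, Ednrb, Bace2 and Trpm1 contribute most (median difference of the list 0.01), the RPE genes overlap, and the macrophage and microglia list is at 9.21 to 10.20 on mutant arrays and 7.99 to 9.42 in wild type.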

How the data were processed

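The authors deposited 1 log2 signal per probe set and array, 45101 on each of 15 Affymetrix arrays. Per the submitters' processing notes these came from RMA, a method of background correction, quantile normalization and probe summary. Its settings, and whether all arrays were processed together, were not stated in the sources. The table was used as deposited. Probe sets were named from the supplied platform annotation: 34958 carried 1 symbol, 932 several and 9211 none. After 64 control probe sets were left out, 45037 entered 1 limma model (version 3.58.1, R 4.3.3) with a mean for each of the 4 genotypes and moderated variances (eBayes), with Benjamini-Hochberg adjustment over all of them. Genes of the lists were read at their brightest probe set; up to 4 each way per list were named, and for like patterns the 5 with the highest Pearson r, for members above 7 on an array. The fit was tested on simulated data. The number of arrays limits precision. Replicate numbers did not pair arrays across all groups (correlations of deviations -0.281 to 0.376). The array sets do match Fz4-/- and wild-type arrays of the same number. Members, lists and array sets were chosen with earlier results of these data known. A list of 6 red blood cell genes had 3 measured. Of these 1 (Alas2) was lower in the mean of the mutants, where 17.7% of all probe sets passed. Alternatives were 9 settings, leaving out each array, and the array sets as a block, added after seeing the data.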

Additional observations from a re-analysis of the deposited data

Results flagged for a closer look

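Tyrp1 was the one gene of the 10 whose change against wild type differed between mutants by a test of the difference itself. At probe set 1415861_at Norrin KO minus Fz4-/- was 2.49 (limma adjusted p = 0.00964) and Norrin KO minus Lrp5-/- was 1.52 (0.0256). At 1439409_x_at the same differences were 2.58 (0.00338) and 2.10 (0.00327). In all 4 cases each of the 3 Norrin KO arrays was above each of the 3 arrays it was compared with. The same held for 11.9% of all probe sets against Fz4-/- and 16% against Lrp5-/-. In none of the 19 wild-type groups did the highest or lowest array lie far enough from the others to pass Dixon's test (critical value 0.625 for 6 arrays).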

How the results depend on the processing

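Of the 133 member differences 42 changed sign under some setting or with some array left out, none of them among the 19 that passed. The Norrin KO calls of Tyrp1, Dct, Mlana and Mitf and the Mitf calls in Fz4-/- and Lrp5-/- held in every setting that tested them and with every array left out. Of 426 recomputed values of called differences 381 kept their call and 45 lost it, those of Ttr given above, those of Tyrp1 between mutants with only the groups compared (adjusted p 0.066 to 0.15), with the replicate block at 1415861_at (0.0669 and 0.0681) and as given above, and the mean-of-mutants calls of Tyrp1 (adjusted p 0.124 and 0.0582) and Mlana (0.0834) with the replicate block, and of Mlana without the 3 arrays apart (0.111). Dct passed in Lrp5-/- under 5 settings (adjusted p 0.02 to 0.0485), Ttr 1455913_x_at in Fz4-/- under 5 (0.0181 to 0.0492), Tyrp1 1415861_at in Lrp5-/- with only the groups compared (0.0189) and Lrat 1421345_at in Norrin KO without the 3 arrays apart (0.0422). Among single arrays, leaving out Fz4-/- 1 or 3 or Norrin KO 1 (0.0372 to 0.0473) also gave the call of Dct in Lrp5-/-, Norrin KO 1 or 2 the call of Tyrp1 1415861_at in Lrp5-/- (0.0228 and 0.0372), wild-type 2 that of Mlana in Lrp5-/- (0.0482), Lrp5-/- 2 those of Lrat 1421345_at in Norrin KO minus wild type (0.0457) and minus Lrp5-/- (0.0328), Lrp5-/- 3 those of Ttr 1459737_s_at and 1451580_a_at in the mean of the mutants (0.033 and 0.0453), and Lrp5-/- 1 or 3 or wild-type 1 that of Ttr 1455913_x_at in Fz4-/- (0.0104 to 0.0439).

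Counts of probe sets past the threshold changed by over 1.5 times as follows (in the order Fz4-/-, Lrp5-/-, Norrin KO and mean of mutants, each minus wild type, then Norrin KO minus Fz4-/-, Norrin KO minus Lrp5-/- and Fz4-/- minus Lrp5-/-; 5382, 3465, 9239, 7977, 546, 3352 and 63 in all). With 1 probe set per gene, fewer rows are tested, with 3047 in Fz4-/-, 4697 in Norrin KO, 4357 in the mean, and 2171 and 41 between mutants (Norrin KO minus Lrp5-/-, Fz4-/- minus Lrp5-/-); members numbered 2, 2, 1 and 1 in Fz4-/-, Lrp5-/-, Norrin KO minus Fz4-/- and Norrin KO minus Lrp5-/-. With only probe sets above the median, Norrin KO minus Fz4-/- had 901, and members numbered 2 in Lrp5-/-, Norrin KO and the mean and 0 in both Norrin KO comparisons between mutants, since the Tyrp1 probe sets are not tested. With trend and robust, Norrin KO minus Fz4-/- had 1021. With quantile normalization again, members in Lrp5-/- numbered 2, and the share of higher calls in Fz4-/- minus Lrp5-/- was 60.8%, against 73% before. With only the groups compared, and so fewer samples, the 3 comparisons between mutants had 17, 30 and 16, and members numbered 3 in Lrp5-/- and 0 in both Norrin KO comparisons between mutants. Replicate numbers do not pair the arrays across all groups. With the replicate block the counts were 3057, 1929, 4927 and 3899 against wild type. They were 30 and 24 for Norrin KO minus Fz4-/- and Fz4-/- minus Lrp5-/-. Members numbered 2 in the mean and 1 in each Norrin KO comparison between mutants. Without the 3 arrays apart, which leaves Lrp5-/- with 1 array assumed to vary like the others, there were 1044 in Lrp5-/-, 14 in Norrin KO minus Lrp5-/- (0 members) and 17 in Fz4-/- minus Lrp5-/-. Within an array set, Fz4-/- had 3131 (1 member) and Fz4-/- minus Lrp5-/- 7. Norrin KO was not placed in an array set and has no such value. With the array sets as a block, an alternative chosen after seeing the data, 5 members passed in Lrp5-/- (Tyrp1 at 2 probe sets, Dct, Mlana and Mitf) and 8 probe sets in Fz4-/- minus Lrp5-/-; in Fz4-/- 3 members passed (Dct, Mitf and Rpe65). The cause of the changes under the trend, scaling, block and array set settings was not tested.

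With each array left out the counts ran from 3052 to 6244, 2203 to 4084, 6323 to 9972, 6645 to 8605, 66 to 1578, 647 to 4861 and 15 to 84, and those of members from 1 to 5, 1 to 3, 5 to 6, 5 to 7, 1 to 2, 1 to 2 and 0 to 0. Signals below the array median limit Tyr, Rpe65 and Lrat, and Tyrp1, Mlana and Pmel on all 6 wild-type arrays. Dct was above that median on only 1 of the 6 wild-type arrays.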
